A study of Mus musculus with 4 samples.

Results

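The genes described are 30 DNA repair genes, read in exome data of 4 samples of c-Kit+ leukemia cells, taken from bone marrow when the mice were moribund. The members were chosen by name, and their variants are the single-nucleotide variants (SNVs) and short insertions or deletions (indels) inside the gene bodies that both callers listed with the same position and alleles. In both callers the depth had to reach 10 reads, the variant reads 3 and the allele fraction (the variant's share of the reads) 10%, and the SpeedSeq quality had to reach 20. Such a variant is called confident. The 30 genes held 108 confident sites, of 47141 in 21883 protein-coding genes and 58880 in the whole series.

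All 4 samples form a single group with the genotype label E2-KO on a C57BL/6 background, which the series title gives as Nras-G12D together with loss of Ezh2, a histone methyltransferase of the Polycomb system. The sources used here do not state the Cre line or promoter behind the Ezh2 loss, or the ages of the animals. No control group and no normal tissue of the same animals entered the comparison, so no variant is called inherited or acquired. The labels carry no replicate number, so replicates 1 to 4 are named here by their listed order; where nothing states that they are separate animals, spreads between them may be technical in part.

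DNA repair genes guard the sequence of the genome along several routes. Mismatch repair removes errors left by the replicative polymerases, which themselves proofread; base excision repair cuts out damaged bases and nucleotide excision repair removes bulky lesions. Homologous recombination, end joining and the Fanconi anaemia pathway mend broken or crosslinked DNA, under checkpoint kinases that sense the damage. Inherited or acquired loss of several of these genes is known to raise the mutation load of blood and other cells.

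Confident variants of the whole series, inside or outside protein-coding genes, numbered 24319 to 37714 a sample, with a median depth of 45 to 52 reads. The Nras change G103058956A (reference base, position on chromosome 3 in mm10, variant base) was present in every sample, at 31.1% to 47.8% of reads. Replicate 3 stood apart in its fractions. Among SNVs with a depth of at least 30, those at 65% or more, here called upper-range (the range in which a homozygous site is usually read), had a median of 80.2% in replicate 3 and 100% in each of the others. Those under 65%, called lower-range, had medians of 44.7%, 45.7%, 37.6% and 44.7% in replicates 1 to 4. Fractions of replicate 3 below are therefore read against these levels.

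The indel alleles are shown first, because indels were the only kind of confident variant in 5 of the 11 affected members and the letters show which of them lie in repeats. Each line gives the reference strand of mm10 from the deposited SpeedSeq records, with the deleted bases (in the reference allele) or the inserted bases (in the variant allele) in capitals.
Pole, 16-base deletion, chr5:110289452-110289469: tAGTGGATGAGTGATAGa
Pole, 15-base deletion, chr5:110294415-110294431: tTGTTTGCGGTACTGGt
Msh3, deletion in a C run, chr13:92346686-92346697: tCcccccctaca
Prkdc, deletion, chr16:15714122-15714144: cTtttttttttttttttcatggc
Prkdc, deletion, chr16:15735169-15735189: cTttttttttttttttacatg
Mbd4, deletion, chr6:115849741-115849763: gAaaaaaaaaaaaaaagagtgac
Ercc5, deletion, chr1:44175792-44175810: gTAtatatatatatatatg
Lig4, deletion, chr8:9971015-9971036: tCccccccccccgccgggccag
Nbn, insertion, chr4:15976006-15976024: gTttttttttttttcttgca
Atm, insertion, chr9:53533996-53534020: aTttttttttttttttttttgctaag
Of 20 indel sites, 13 lay in a run of at least 5 copies of the changed unit, counted in the allele shown, and none of these 13 was in Pole. The 7 Pole indels changed 1, 2, 15 or 16 bases outside such runs.

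Confident variants were found in 11 of the 30 members (36.7%) in at least 1 sample, where 23.7% of all protein-coding genes had one. By sample the count was 8, 7, 8 and 3 members in replicates 1 to 4 (mean 6.5 ± 2.38, SD, n = 4), which is 26.7%, 23.3%, 26.7% and 10%. The exact 95% intervals of these shares were 12.3% to 45.9%, 9.93% to 42.3%, 12.3% to 45.9% and 2.11% to 26.5%. The background shares of 14.7%, 14.5%, 14.5% and 10.7% of protein-coding genes lie inside these intervals. The intervals treat the chosen genes as independent, which genes of a shared chromosome segment are not, so a difference from the background was not tested. The members are also longer genes, with a median gene body of 35.6 kb against 17.2 kb over all protein-coding genes, and length was not adjusted for. SNVs were found in 6 members (20%, background 17.6%) and indels in 10 (33.3%, background 14.2%). Without indels, an average of 4.0 members a sample held a variant.

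The variants were concentrated in few genes. Pole, Msh3 and Rad50 together held 96 of the 108 sites (88.9%). Only Msh3, Rad50 and Prkdc had at least 1 confident variant in each of the 4 samples (10% of members, background 5.08%). The same site was confident in every sample only in Rad50. In replicates 1 to 4 the members held 82, 61, 88 and 36 variants (mean 66.8 ± 23.5, SD, n = 4), at median depths of 46.5, 39, 51.5 and 40.5 reads. Pole and Msh3 had at least 10 variants in a sample, 6.67% of members beside 5.59% of protein-coding genes.

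**Figure D1:**
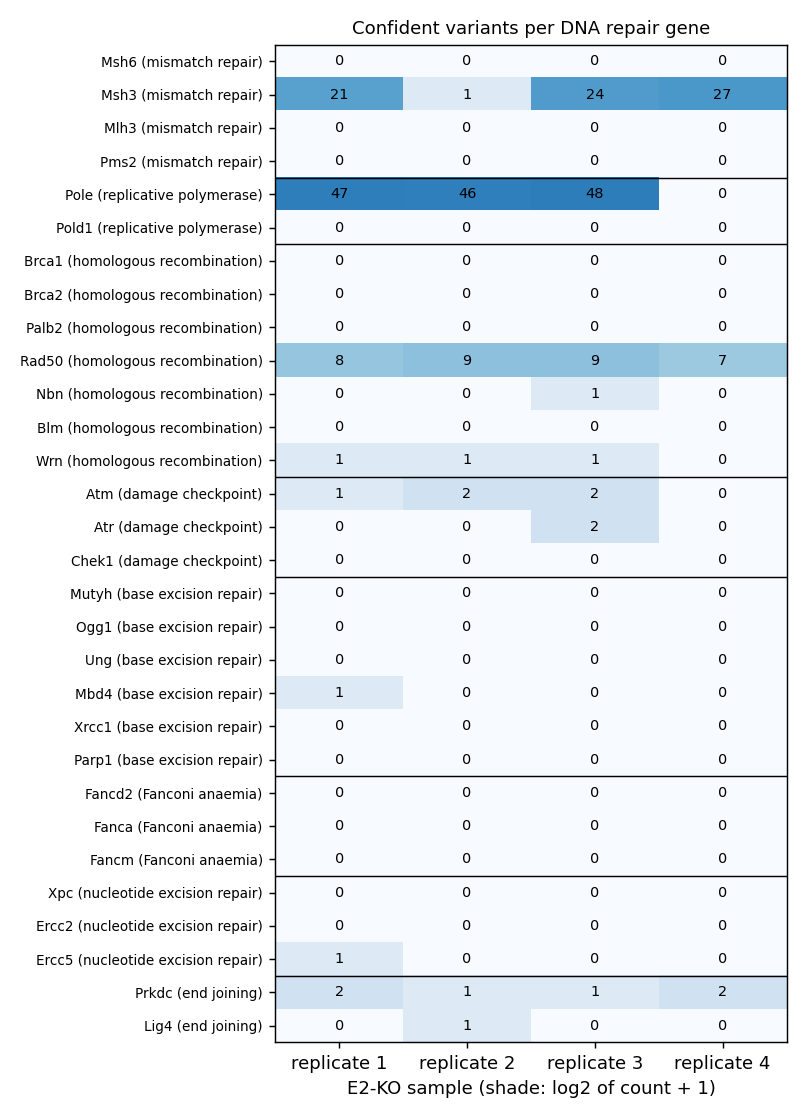
Confident variants in each of the 30 DNA repair genes (rows, grouped by pathway) in the 4 E2-KO samples (columns); the printed number is the count and the shade its log2 after adding 1. Pole has 46 to 48 variants in replicates 1 to 3 and 0 in replicate 4, Msh3 has 21 to 27 in 3 samples and 1 in replicate 2, and 19 genes have none in any sample.

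Among the replicative polymerases, Pole, the catalytic subunit of the leading-strand polymerase epsilon, carried 47, 46 and 48 confident variants in replicates 1, 2 and 3 and none in replicate 4. The gene lies on chromosome 5 from 110286319 to 110337468 (mm10), and its 55 sites, 48 SNVs and 7 indels, spread over 47.9 kb. Exons and coding effects were not analysed here, so a site may be exonic or intronic. Of the 55 sites, 40 were confident in the same 3 samples. The Pole fractions were those of the lower range: the medians were 45.5%, 48.1% and 39.1% in replicates 1 to 3, with ranges of 26.7% to 71.4%, 33.3% to 64.3% and 25.9% to 56.4%. The lower median of replicate 3 stands beside the lower genome-wide level of that sample.

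The most deeply read Pole indel, an inserted A at position 110289385, had 73 of 137 reads of replicate 1, 54 of 113 of replicate 2 and 52 of 129 of replicate 3. These are 53.3%, 47.8% and 40.3%, with exact 95% intervals of 44.6 to 61.9, 38.3 to 57.4 and 31.8 to 49.3. These 3 intervals overlap, and replicate 4 listed no call at the position. The 16-base deletion was read at 53.5% (23 of 43), 42.4% (14 of 33) and 39.1% (18 of 46), almost entirely on the reverse strand. The VarScan2 reads (variant over variant plus reference reads, here and below) gave 35.4%, 26.2% and 27.7%, so the fraction depends on the caller. The 15-base deletion was confident only in replicate 2 (12 of 25 reads, all forward) and was listed by VarScan2 in replicate 3; it is named here after its values were seen. A GA insertion at 110334373 was uneven, at 29.5% in replicate 1 (18 of 61), 57.9% in replicate 2 (22 of 38) and 25.9% in replicate 3 (14 of 54). Replicate 2 differed there from replicate 1 and from replicate 3 (adjusted p = 0.0227 and 0.00954, Fisher's exact test on variant and reference reads, Benjamini-Hochberg over all 118256 site pairs of the genome).

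Over the gene, 6 of 126 Pole site pairs differed between samples by this test, of which 5 involved replicate 3. Over the genome 31.1% of site pairs differed, and for the pairs of replicates 1 and 2, 1 and 3, and 2 and 3 the shares were 15.4%, 32.1% and 34.9%. The test compares reads of 2 libraries, not conditions, and sites of a chromosome segment are not independent. Pole held 2 upper-range calls, both in replicate 1 on shallow reads and named after their values were seen: 10 of 14 reads at 110299648, where replicate 3 had 8 of 25, and 12 of 18 at 110301929. Pold1, the catalytic subunit of polymerase delta, had no call of any quality in any sample.

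Among the mismatch repair genes, Msh3, which recognises insertion and deletion loops as part of MutSbeta, carried 21, 1, 24 and 27 confident variants in replicates 1 to 4. Its gene body lies on chromosome 13 from 92211878 to 92355004 and spans 143.1 kb, but all 30 sites lay in the 46.8 kb between 92306459 and 92353237. The side with the sites is the one that holds the gene's start in the RefSeq promoter table. Msh6, Mlh3 and Pms2 had no confident variant; Msh6 had no call at all, and the 2 Mlh3 and 4 Pms2 positions listed had a depth of 5 at most.

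Every Msh3 variant was lower-range in every sample, with medians of 43.2%, 40% and 39.5% in replicates 1, 3 and 4. A deletion in a C run at 92346686 had 27 of 62 reads of replicate 1, 21 of 55 of replicate 3 and 24 of 63 of replicate 4. These are 43.5%, 38.2% and 38.1%, with exact 95% intervals of 31.0 to 56.7, 25.4 to 52.3 and 26.1 to 51.2. The 3 samples overlap widely at this site. The lone Msh3 call of replicate 2 was a deletion in a run of 17 T at 92306459, with 9 of 39 reads and a quality of 26.0, and replicate 2 listed none of the other 29 sites.

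Between samples, 7 of 61 Msh3 site pairs (11.5%) differed by Fisher's exact test. The shares were 11.1%, 4.76% and 18.2% for replicates 1 and 3, 1 and 4, and 3 and 4, all below the genome-wide 32.1%, 31.8% and 46.4%. The SNV A92349194G (here and below, reference base, position on the chromosome, variant base) was at 23.0% in replicate 1 (17 of 74), 43.7% in replicate 3 (45 of 103) and 43.0% in replicate 4 (43 of 100). Replicate 1 was lower than both (adjusted p = 0.0223 and 0.0224, Fisher's exact test). At G92345041A the low sample was another one, with 42.4%, 32.5% and 52.3% in replicates 1, 3 and 4 (adjusted p = 0.0120 for replicate 3 against 4, Fisher's exact test). Both SNVs are named after their values were seen. In the called pairs at T92344961C, A92345190G, T92345192G and C92347535T, replicate 3 was again the lower sample. These SNVs are also named after their values were seen. The pairs at A92349194G, with replicate 1 lower, were the only called ones in which it was not. Replicate 3 also had the lowest genome-wide lower-range median (37.6%).

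Msh3 also held 2 private SNVs, meaning confident in 1 sample with no listing of the position, by either caller and whatever its quality, in the remaining 3. T92351137C had 7 of 26 reads in replicate 4 (26.9%, exact 95% interval 11.6 to 47.8), all on the forward strand. A92351538G, named after its values were seen, had 6 of 15 reads in replicate 3 (40%, 16.3 to 67.7), all on the reverse strand. The depth at these positions in the other samples is unknown, so a difference between samples was not tested.

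**Figure D2:**
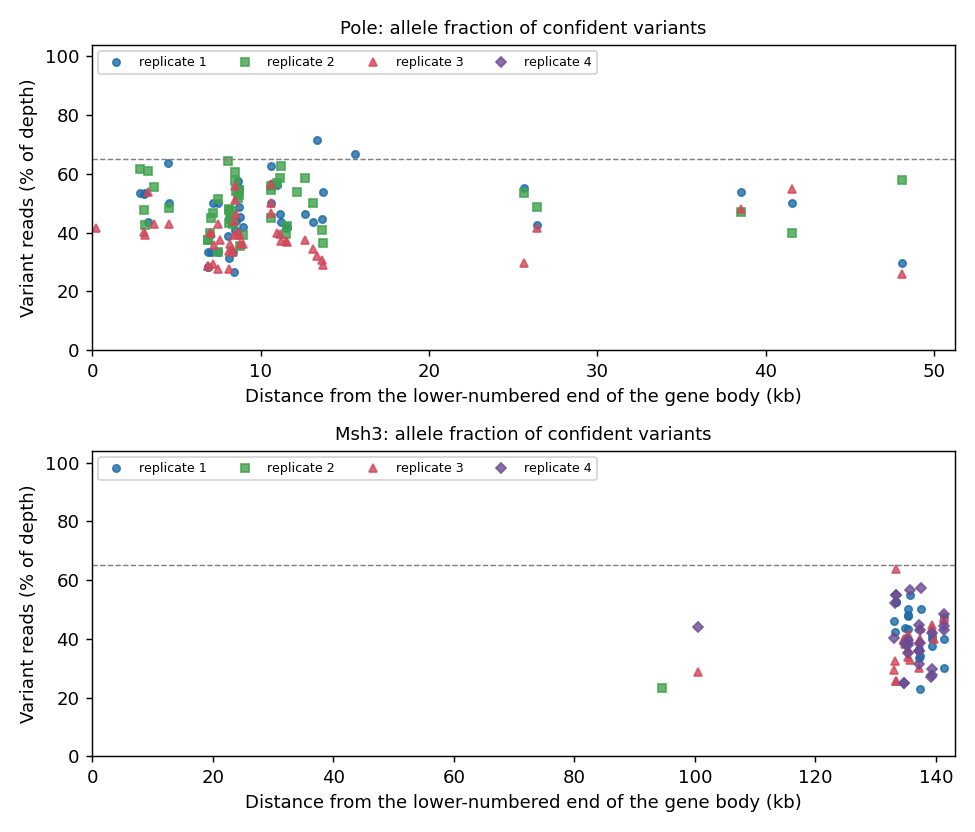
Percent of reads with the variant at each confident site of Pole (upper panel) and Msh3 (lower panel), against the distance in kb from the lower-numbered end of the gene body; symbols and colours mark the 4 samples and the dashed line the 65% limit of the upper range. Replicate 4 has no Pole site, replicate 2 has a single Msh3 site at 23.1%, and the sites of Msh3 lie in the right part of its 143.1 kb.

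Among the genes of homologous recombination, Rad50, the ATPase of the MRN complex that holds broken DNA ends, was the only member whose samples fell on different sides of the 65% limit at most sites. It lies on chromosome 11 from 53649519 to 53707319 and held 8, 9, 9 and 7 confident variants in replicates 1 to 4, at 11 sites. The median fractions were 41.8%, 45.9%, 78.9% and 100%. Of the 9 member sites that differed in class between samples, 8 were in Rad50. For the members this is 9 of 85 sites found in at least 2 samples (10.6%), where 36.6% of such sites in all protein-coding genes differed.

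The deepest Rad50 site, C53698271A, had 68 of 127, 43 of 111, 86 of 105 and 114 of 117 reads in replicates 1 to 4. These are 53.5%, 38.7%, 81.9% and 97.4%, with exact 95% intervals of 44.5 to 62.4, 29.6 to 48.5, 73.2 to 88.7 and 92.7 to 99.5. Replicates 1 and 2 were low and overlapped, replicate 3 was higher than both, and replicate 4 was higher still. Replicate 4 exceeded replicate 2 by 58.7 percentage points (adjusted p = 1.27e-26, Fisher's exact test) and replicate 3 by 15.5 points (adjusted p = 2.15e-06). Replicates 1 and 2 did not pass Fisher's exact test (14.8 points, adjusted p = 0.0815).

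The next site, A53702158G, repeated the order with 43.9% (43 of 98), 46.5% (40 of 86), 77.6% (90 of 116) and 100% (102 of 102). T53692299C gave 42.3% (30 of 71), 41.8% (28 of 67), 83.0% (44 of 53) and 100% (59 of 59). At all 5 sites confident in every sample, replicates 1 and 2 were in the lower range and replicates 3 and 4 in the upper. In replicate 3 these sites stood at 77.6% to 90%, beside its genome-wide upper-range median of 80.2%. Over all Rad50 site pairs 27 of 40 differed (67.5%), including 5 of 5 between replicates 1 and 4, 6 of 7 between 2 and 4, and 0 of 7 between 1 and 2. The genome-wide shares for these 3 pairs of samples were 31.8%, 34.2% and 15.4%.

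The 3 Rad50 indels all lay in A runs and are named after their values were seen. A deleted A at 53701828 kept the order of the SNVs, with 36.4%, 33.3% and 78.9% in replicates 1 to 3. An inserted A in a run of 14 at 53692558 did not when read as a share of depth. It had 69.2%, 77.8% and 65% in replicates 2, 3 and 4, on 13 to 20 reads. Replicate 2 had its single upper-range call there. Some of these reads carried neither allele. Variant and reference reads numbered 9 and 3, 14 and 1, and 13 and 1, and on these alone replicate 2 had the lowest share. No pair of samples differed there by Fisher's exact test. An AA insertion at 53698331 was confident in replicate 3 alone, at 60% in SpeedSeq (21 of 35) and 37.5% in VarScan2. These depths leave intervals over 30 percentage points wide.

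**Figure D3:**
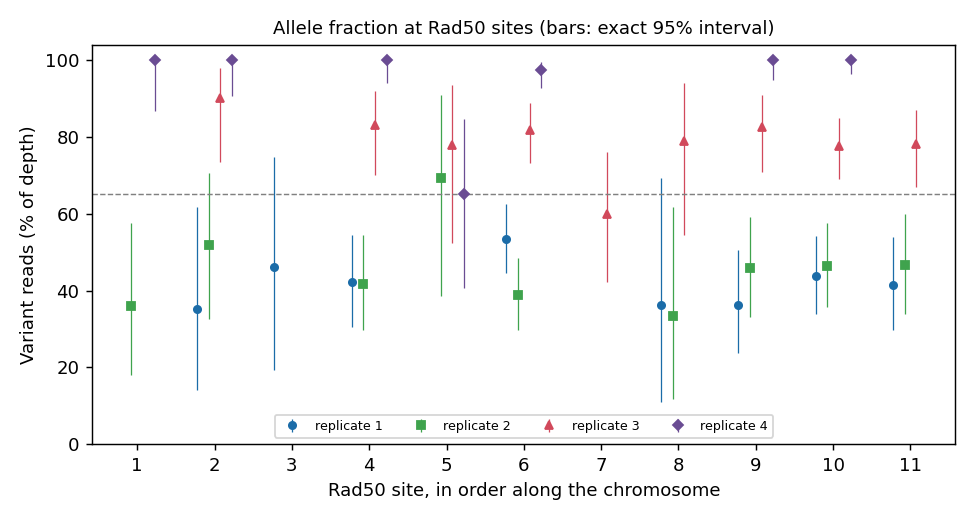
Percent of reads with the variant at the 11 Rad50 sites in chromosomal order; symbols mark the samples, bars the exact 95% interval and the dashed line the 65% limit. At the SNVs, replicates 1 and 2 lie between 35.3% and 53.5%, replicate 3 between 77.6% and 90%, and replicate 4 between 97.4% and 100%.

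The other recombination genes had little or nothing. Wrn, a RecQ helicase, carried a single SNV, G33343025C on chromosome 8, with 49 of 122 reads in replicate 1, 48 of 106 in replicate 2 and 44 of 143 in replicate 3, on both strands. These are 40.2%, 45.3% and 30.8%, with exact 95% intervals of 31.4 to 49.4, 35.6 to 55.2 and 23.3 to 39.0. Replicate 4 listed no call at the position. By Fisher's exact test no pair of samples differed past the threshold (adjusted p = 0.793, 0.292 and 0.0734 for replicates 1 and 2, 1 and 3, and 2 and 3). No other confident SNV lay within 1 Mb of Wrn in any sample, so it was the only isolated SNV among the members that samples shared.

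Nbn, the MRN subunit that recruits Atm, had an inserted T in a run of 13 in replicate 3 (7 of 28 reads, 25.0%, quality 27.4), which VarScan2 also listed in replicate 1. Brca1, Brca2 and its partner Palb2, and the helicase gene Blm had no confident variant.

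Among the checkpoint kinases, Atm, which responds to broken ends, carried the same 2 SNVs in replicates 2 and 3 and neither in replicates 1 and 4. C53458872T on chromosome 9 had 52 of 98 reads in replicate 2 and 45 of 120 in replicate 3, which is 53.1% and 37.5% (exact 95% intervals 42.7 to 63.2 and 28.8 to 46.8). The difference of 15.6 points missed the threshold of Fisher's exact test (adjusted p = 0.0850). C53527394T was at 56.2% (9 of 16) and 43.8% (7 of 16). Both SNVs are named after their values were seen. Replicate 1 had a separate Atm call, an inserted T in a run of 19, in 6 of 29 reads (20.7%), all on the reverse strand, and replicate 3 listed another allele at that position.

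Atr, the kinase of replication stress, held the best supported private variant of the list. C95865570G on chromosome 9 was present in replicate 3 in 50 of 118 reads (42.4%, exact 95% interval 33.3 to 51.8), with 22 forward and 28 reverse reads, and was listed in no other sample. It does not stand alone: 42 confident SNVs of replicate 3 lay within 1 Mb of Atr, and replicates 1, 2 and 4 had 0. A deletion of a T in a run of 18 was also confident in replicate 3 (5 of 14 reads), and VarScan2 listed it in replicate 4. Chek1, the kinase downstream of Atr, had no confident variant.

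In base excision repair, 5 of 6 members, Mutyh, Ogg1, Ung, Xrcc1 and Parp1, had no confident variant. Mbd4, a glycosylase that removes thymine and uracil opposite guanine, had a private deletion in a run of 15 A in replicate 1 (8 of 27 reads, 29.6%, exact 95% interval 13.8 to 50.2), all on the reverse strand and at the lowest quality of all confident member variants, 24.0. In nucleotide excision repair, Xpc and Ercc2 had none. Ercc5, the endonuclease that cuts 3' of a lesion, had a private deletion of 1 TA unit of 8 in replicate 1 (10 of 40 reads, 25.0%, 12.7 to 41.2). In the Fanconi anaemia group, Fancd2, Fanca and Fancm had no confident variant.

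End joining was the pathway in which each member carried a variant, and all 3 sites were deletions in runs. Prkdc, the catalytic subunit of the DNA-dependent protein kinase, lost a T from a run of 16 in replicates 1, 3 and 4, at 24.4% (30 of 123), 24.2% (30 of 124) and 21.8% (24 of 110); VarScan2 gave 32.3%, 26.9% and 33.0%. It lost a T from a run of 15 in replicates 1, 2 and 4, at 38.5% (5 of 13), 35.0% (7 of 20) and 31.2% (5 of 16). Reference reads numbered 59, 67 and 49 at the first site and 6, 7 and 5 at the second. Part of the depth at both sites was therefore reads of neither allele. None of the 6 Prkdc pairs differed by Fisher's exact test; at an adjusted p of 1.0 for each, the reads could not separate the samples. Lig4, the ligase that seals the joined ends, had a private deletion in a run of 11 C in replicate 2 (10 of 37 reads, 27.0%, exact 95% interval 13.8 to 44.1).

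**Figure D4:**
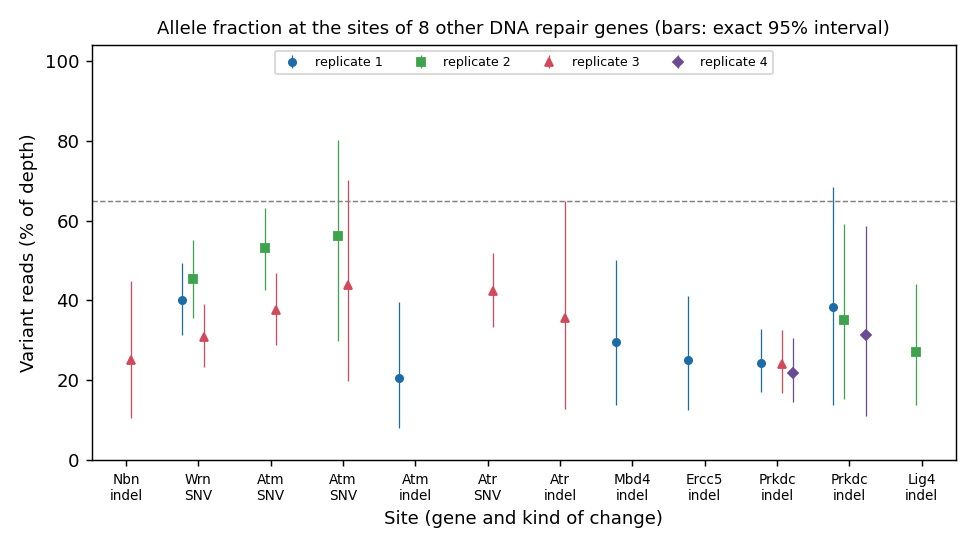
Percent of reads with the variant at the 12 sites of the other 8 members that held one; symbols mark the samples, bars the exact 95% interval and the dashed line the 65% limit. All sites lie under the limit, and the indels reach 38.5% at most.

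The zygosity classes can now be counted over the list. Upper-range variants numbered 2, 1, 8 and 7 in replicates 1 to 4, which is 2.44%, 1.64%, 9.09% and 19.4% of the members' variants, where 22.7%, 22.6%, 27.1% and 53.5% of all confident variants in protein-coding genes were upper-range. In replicates 3 and 4 every one of these calls lay in Rad50. Over all members, 40 of 238 site pairs (16.8%) differed in fraction, beside 31.1% over the genome. The genes diverged: 4.76% of 126 pairs differed in Pole, 11.5% of 61 in Msh3 and 67.5% of 40 in Rad50. Sites of a segment are not independent, so a difference from the genome was not tested.

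Sharing followed the same few genes. Of the 108 sites, 5 (4.63%) were confident in all 4 samples, 64 (59.3%) in 3, 16 (14.8%) in 2 and 23 (21.3%) in 1, where the shares over protein-coding genes were 17.0%, 24.2%, 26.0% and 32.8%. The 5 sites found in every sample were all Rad50 SNVs. Leaving out replicate 4, which lacks the Pole sites, raised the number found in every sample to 48, and leaving out replicate 2, which lacks the Msh3 SNVs, raised it to 24. Private sites numbered 6 (5.56%, background 20.8%) in 5 members (16.7%, background 9.29%): 3 SNVs, in Atr and Msh3, and 3 indels in runs, in Mbd4, Ercc5 and Lig4. Of the 23 sites confident in 1 sample, 17 were not private because another sample listed the position. With SNVs alone the private sites were 3.

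SNVs of the members were transitions in 60 of 88 cases (68.2%, exact 95% interval 57.4 to 77.7), beside 71.4% over protein-coding genes. Of these SNVs, 48 lay in Pole and 28 in Msh3. Sites of a segment are not independent, as the interval assumes, so a difference was not tested. Indels made up 18.5% of the members' sites, beside 12.3%, and 13 of 20 changed a single base (65%, beside 61.2%). No confident variant and no call of lower quality lay in the RefSeq promoter windows (GRCm38.p6, 250 bases before to 50 after the start) of the 23 members matched there; the depth there is unknown.

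The variants around the genes set the affected members apart from each other. Pole had 274, 269 and 267 confident SNVs within 1 Mb on either side, its own body left out, in replicates 1 to 3, and 1 in replicate 4. Msh3 had 103 in replicates 1, 3 and 4 and 1 in replicate 2, and Rad50 had 191, 189, 193 and 155. Atm had 38 in replicates 2 and 3 and 0 in the others. In these 4 genes, the samples with at most 1 SNV around the gene had no confident SNV inside it.

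The reverse did not hold. Ung, the uracil glycosylase, had 285, 282 and 280 SNVs around it in replicates 1 to 3 and no call in its 9.0 kb body, and Chek1 had 96, 97 and 94 around 18.2 kb with none confident inside. Over all protein-coding genes, those with at least 10 flanking SNVs held a confident variant in 40.3%, 42.0%, 43.8% and 35.9% of cases in replicates 1 to 4, and the rest in 4.76%, 4.99%, 4.73% and 4.06%. Among the members 3 of 5, 3 of 5, 5 of 8 and 2 of 3 genes with at least 10 held one. Of the 13 cases of a member with a variant in a sample with fewer than 10 flanking SNVs, 10 held repeat indels only, and the other 3 were the Wrn SNV in its 3 samples.

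**Figure D5:**
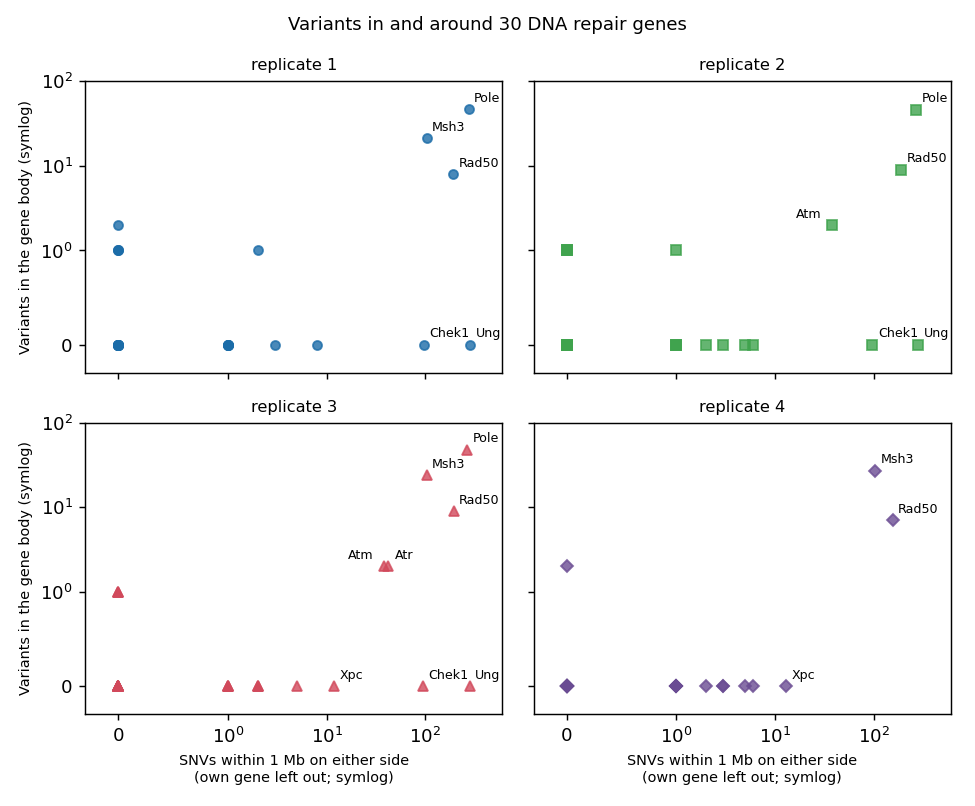
Confident variants inside each of the 30 genes against confident SNVs within 1 Mb on either side, one panel per sample, both axes on a symmetric log scale that is linear below 1; genes with at least 10 flanking SNVs are named. Pole, Msh3 and Rad50 lie at the upper right, except Pole in replicate 4 and Msh3 in replicate 2, which have 1 flanking SNV each. Ung and Chek1 lie at 0 on the vertical axis with 94 to 285 flanking SNVs in replicates 1 to 3.

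The 19 members without a confident variant were Msh6, Mlh3, Pms2, Pold1, Brca1, Brca2, Palb2, Blm, Chek1, Mutyh, Ogg1, Ung, Xrcc1, Parp1, Fancd2, Fanca, Fancm, Xpc and Ercc2. Their median gene body was 26.7 kb, against 57.8 kb for the 11 others. Of them, 5 (Msh6, Pold1, Mutyh, Ung and Parp1) had no call of any quality, and the deepest call in the others had 39 reads, in Palb2. Calls below the confident level stood at 1 position each in Palb2, Chek1, Ogg1, Xpc and Ercc2, at 2 in Mlh3, Xrcc1 and Fanca, at 4 in Pms2, Brca1 and Fancm, at 5 in Blm and at 6 in Brca2 and Fancd2. The files list variant positions only, so a position without a call may have matched the reference or may not have been read.

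A wider list of 100 further repair genes gave 26 genes (26.0%) with a confident variant in at least 1 sample, beside the background of 23.7%, and 17, 13, 13 and 15 in replicates 1 to 4. By pathway these were 2 of 4 mismatch repair genes, 2 of 8 polymerase subunits, 4 of 21 recombination, 3 of 12 checkpoint, 5 of 17 base excision, 3 of 11 Fanconi, 0 of 11 nucleotide excision, 5 of 9 end-joining and 2 of 7 translesion genes. Several shared the sample pattern of a member. Chek2, on chromosome 5 from 110839800 near Pole, had 16, 19 and 17 variants in replicates 1 to 3 and 0 in replicate 4, as Pole did. Polk, on chromosome 13 from 96480687, had 24, 0, 25 and 28, as Msh3 nearly did.

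Classes differed between samples in 7 of the 100 genes, near the 7.31% of all protein-coding genes: Exo1, Pold2, Chek2, Neil3, Poll, Polm and Dntt. Neil3, a glycosylase of oxidised bases, had a median of 100% in replicate 1 (19 variants) and of 44.5%, 39.4% and 40% in replicates 2 to 4 (18, 19 and 20 variants). Polm, a polymerase of end joining, had medians of 100%, 46.9%, 82.5% and 100%, so that replicate 2 alone was in the lower range. Private variants were found in 10 of the 100, near the background of 9.29%: Atrip, Topbp1, Parp3, Xrcc2 and Lig1 in replicate 3, Fan1, Fanci and Rad54l in replicate 2, and Polk and Rpa1 in replicate 4. Atrip, the partner of Atr, had 9, Topbp1, an activator of Atr, had 11 and Parp3 had 18, and all 3 lie on chromosome 9, as Atr does.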

How the data were processed

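Exome libraries of 4 samples (SureSelect mouse exon capture, BGISEQ500 paired reads of 100 bases each, per the labels) were used as deposited variant lists. SpeedSeq lists were made by freeBayes 0.9.21 on mm10, 1 sample at a time, and carry a Phred-scaled quality score, per the file headers. VarScan2 lists of SNVs and indels give reads, frequency and strand; their lowest coverage is 8 reads. How reads were aligned, how duplicates were handled and which VarScan2 release was run is not given in the sources used here. Depth ranged from 11 to 191 reads at member variants. Intervals are exact (Clopper-Pearson), cover counting error only and treat the reads, genes or sites counted as independent.

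Alleles were trimmed to their shortest form, and equal-length SpeedSeq blocks were split into SNVs. Gene bodies came from RefSeq (GRCm38.p6, the same build as mm10), without exons; all 30 members and 100 further genes matched by symbol. Fisher's exact test (two-sided, scipy 1.17.1, Benjamini-Hochberg over all site pairs, threshold 0.05) was tested on simulated data. Members, pathway lists and tests were chosen with earlier results of these data known. All members were accounted for by name; sites were named if private, an indel, of differing class or the only site, up to the 3 deepest per member. Sites outside this rule are marked as named after their values were seen in the text.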

Additional observations from a re-analysis of the deposited data

Results flagged for a closer look

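Of 24 per-sample quantities examined (counts over the list, counts per affected member and the fractions of the 5 Rad50 sites found in every sample), 7 had 1 sample far from the other 3 (a gap above Dixon's critical value). Chance gives about 1 in 20 for continuous values, but not for such small counts. A sample that differs always stands apart where the other 3 have equal counts. Pole had 0 variants in replicate 4, against 46 to 48 in the others. Wrn had 0 in replicate 4 and 1 in each other sample. Atr had 2 in replicate 3 and 0 elsewhere. Nbn in replicate 3, Mbd4 and Ercc5 in replicate 1 and Lig4 in replicate 2 had 1, and 0 elsewhere; these 4 were single indels in runs.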

How the results depend on the processing

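Of 101 values recomputed under 17 settings, 80 stayed within 1.5 times the reported count; the cause of the moves was not tested. VarScan2 alone raised the mean number of affected members from 6.5 to 10.25 and the private sites from 6 to 17. Private sites fell to 1 at a quality of at least 100 and to 3 with reads on both strands or with SNVs only, and rose to 23 when only confident calls of other samples counted against them. Reads on both strands lowered the mean of upper-range variants from 4.5 to 2.75, and SNVs only lowered the mean of affected members to 4.0. Leaving out calls within 100 bp of another gave 23.0 variants a sample, 44 sites, 2 in all samples and 16 differing pairs. SNVs only and unsplit blocks were settings chosen after seeing the data.

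Leaving out each replicate in turn gave 6.0 to 7.67 affected members, 59.7 to 77.0 variants a sample, 98 to 106 sites, 6 to 48 sites in all samples, 8 to 13 private sites, 3.33 to 5.67 upper-range variants and 13 to 24 differing pairs (40 with all samples). With fewer samples a site has fewer to be shared with or absent from, by construction. No paired analysis was possible because the samples form 1 group without label numbers. Of 267 passing calls 22 had a depth under 15.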
